A study of Homo sapiens with 9 samples.

Results

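Antisense transcripts are RNAs read from the strand opposite to another gene, and many of them carry that gene's name followed by -AS and a number, as in *LEF1-AS1*. Here the probes of such transcripts were followed after knockdown of *PHF6*, which encodes a chromatin-associated PHD finger protein. They were chosen by name and by detection alone. Of the Agilent catalogue probes on the array, 320 probes of 282 symbols had such a name, and those flagged well above background on 3 or more of the 9 arrays were kept. This held for 185 probes of 163 symbols, among 33625 probes of all kinds that passed the same filter. Of the 185 probes, 148 were well above background on all 9 arrays and 37 on 3 to 8 arrays. Of the probes that were left out, 34 were above background on 1 or 2 arrays and 101 on none.

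The cells were ALL-SIL, an established cell line of T cell acute lymphoblastic leukemia (T-ALL). They were electroporated with a control siRNA or with either of 2 siRNAs against *PHF6*, named siRNA1 and siRNA2 in the labels, and all samples share this cell line and the electroporation. Each group holds 3 samples, numbered 1 to 3 and described as independent biological replicates of this single line, and each sample was read on its own one-color array. Most labels place the harvest at 96 h after electroporation, and a free-text label at 72 h. The siRNAs came as a Silencer Select reagent and as a SMARTpool, without a statement in the sources used here of which is siRNA1.

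Many antisense transcripts start at the promoter of a neighboring gene and run away from it, in a head-to-head arrangement in which 1 stretch of open chromatin serves both directions. Others start inside the gene and overlap its exons or introns. Such RNAs are often short-lived and are degraded in the nucleus by the RNA exosome, and some of them are known to affect the gene they lie against, whereas for most no function is known.

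The promoters of the transcripts on which the results turn are printed here 5′ to 3′ on the strand of each transcript, from RefSeq (GRCh38.p14), with every CpG in capitals. The first pair is shown because antisense transcript and gene start within 1 promoter, and the other windows belong to the next strongest of the antisense transcripts that rose. *HHIP-AS1* lies at chr4:144645970-144646269 on the minus strand, *HHIP* at chr4:144645906-144646205 on the plus strand, *LEF1-AS1* at chr4:108171870-108172169 on the plus strand and *PRR34-AS1* at chr22:46053596-46053895 on the plus strand. Each window runs from 250 bases before the start of the transcript to 50 bases into it.
HHIP-AS1: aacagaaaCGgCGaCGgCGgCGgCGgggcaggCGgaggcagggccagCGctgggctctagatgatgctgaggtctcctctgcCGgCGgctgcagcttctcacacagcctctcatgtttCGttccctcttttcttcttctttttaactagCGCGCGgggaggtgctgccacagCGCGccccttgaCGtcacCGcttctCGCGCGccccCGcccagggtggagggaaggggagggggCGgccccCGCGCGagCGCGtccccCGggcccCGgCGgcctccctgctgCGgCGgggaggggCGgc
HHIP: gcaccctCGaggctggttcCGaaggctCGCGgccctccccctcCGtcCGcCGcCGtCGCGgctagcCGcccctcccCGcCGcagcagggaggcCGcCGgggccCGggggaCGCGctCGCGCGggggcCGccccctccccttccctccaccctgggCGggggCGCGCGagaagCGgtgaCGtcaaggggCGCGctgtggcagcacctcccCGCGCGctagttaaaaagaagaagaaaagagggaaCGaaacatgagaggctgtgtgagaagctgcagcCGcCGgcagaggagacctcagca
LEF1-AS1: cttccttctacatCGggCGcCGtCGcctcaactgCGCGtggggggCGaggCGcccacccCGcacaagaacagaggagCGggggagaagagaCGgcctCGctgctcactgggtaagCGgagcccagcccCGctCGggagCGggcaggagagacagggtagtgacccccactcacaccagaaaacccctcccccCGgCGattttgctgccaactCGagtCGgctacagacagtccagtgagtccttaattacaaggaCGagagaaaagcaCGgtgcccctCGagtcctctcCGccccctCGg
PRR34-AS1: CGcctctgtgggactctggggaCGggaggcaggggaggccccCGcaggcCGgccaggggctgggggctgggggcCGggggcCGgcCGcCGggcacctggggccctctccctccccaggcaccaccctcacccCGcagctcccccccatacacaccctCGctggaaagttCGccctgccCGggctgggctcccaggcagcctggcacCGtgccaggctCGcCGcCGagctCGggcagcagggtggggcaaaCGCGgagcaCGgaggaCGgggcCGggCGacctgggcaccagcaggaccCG
The windows of *HHIP-AS1* and *HHIP* share 236 bases and hold 34 and 36 CpG, against a median of 14 over all 27305 promoters of the reference. The window of *LEF1-AS1* holds 25 CpG and that of *PRR34-AS1* holds 24.

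*PHF6* itself had 1 probe, with values on the generalized log2 scale of the VSN normalization of 11.07, 11.17 and 10.86 with control siRNA, 9.39, 9.69 and 9.12 with siRNA1 and 9.20, 9.28 and 9.14 with siRNA2. Every siRNA array was below every control array, with a log2 fold change of -1.73 (limma, adjusted p = 0.00251). All 11 T-lineage markers, including *CD3E* and *TLX1*, were well above background on all 9 arrays. Of these, *CD7* (-0.76) and *PTCRA* (-0.73) fell when the fit was blocked on the replicate number (limma, adjusted p of 0.0126 and 0.00838). Without the block their adjusted p were 0.589 and 0.644. In all, 9 of the 11 were lower and 2 higher, *CD1A* by 0.71 (limma with the block, adjusted p = 0.0733) and *CD2* by 0.14. Of B-lineage, monocyte, NK and erythroid markers, 9 were tested and none passed, the lowest adjusted p with the block being 0.133, for *CD79A*. Replicates 1 and 2 of every group were on 1 slide and replicate 3 on another.

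Most antisense transcripts differed little between the groups. Changes are given as log2 fold changes of the mean of both siRNAs against control siRNA. They ranged from -0.71 to 0.82, and 143 of the 185 probes were within 0.25 of 0. The median was -0.008, beside -0.001 over all tested probes, with 89 probes higher and 96 lower. Their spread within groups, a median SD of 0.228 (n = 3 a group), was near that of all tested probes, 0.218. Limma on the 9 arrays called 0 of the 185 probes at an adjusted p under 0.05, where 0.00892% of all tested probes were called. At an unadjusted p under 0.05 the count was 23, or 12.4%, beside 7.43% of all tested probes.

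Samples with the same number deviated from their group means together, so that the number pairs the arrays. When limma was blocked on this number, it called 10 of the 185 probes, 5.41% beside a background of 2.72%, with 7 higher (background 1.85%) and 3 lower (background 0.874%). The rise or fall of these 10 is the result described next, and each call rests on this block. When replicate 1 or replicate 2 was left out of every group, 0 of the 10 calls were left, and without replicate 3 there were 2 calls, of *HHIP-AS1* and *ZNF667-AS1*. With the slide as a block in place of the number, 0 were called. For each of the 10 probes 6 of 6 siRNA arrays lay on 1 side of their own control array, which is what a fit blocked on the number selects for and is no further support.

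**Figure D1:**
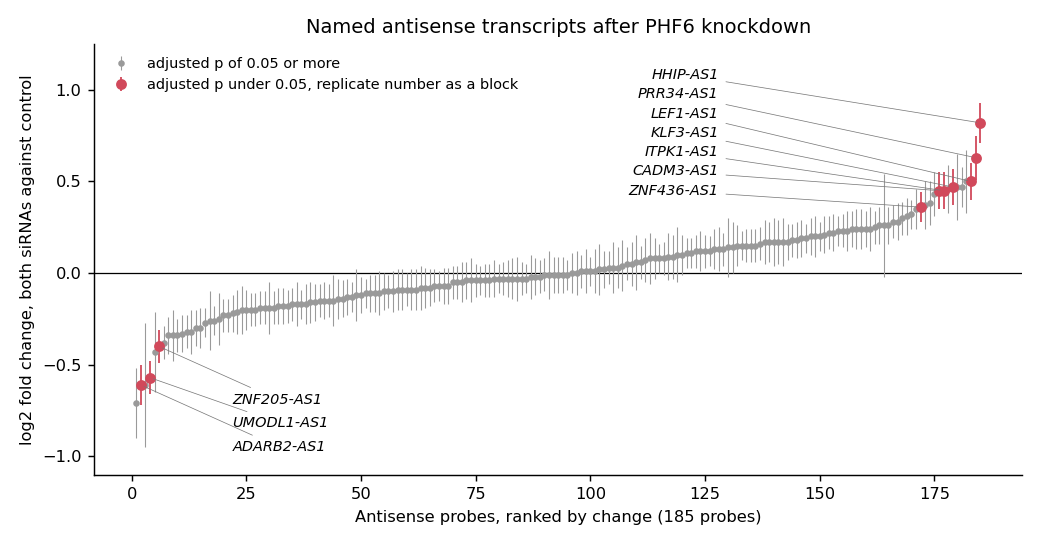
Log2 fold change of both siRNAs against control siRNA for the 185 antisense probes in rank order, with bars for the standard error of the fit blocked on the replicate number. Red marks the 10 probes with an adjusted p under 0.05 in that fit, of which 7 were higher and 3 lower, and the other probes lie mostly within 0.25 of 0.

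*HHIP-AS1* rose most. It had values of 6.33, 7.48 and 6.72 with control siRNA, 7.04, 7.79 and 7.51 with siRNA1, and 7.34, 8.61 and 7.72 with siRNA2, each in the order of replicates 1 to 3. The groups overlapped, because the second control array was above 2 of the siRNA arrays, but within each number both siRNA arrays were above the control. The change was 0.82 (standard error, SE, 0.11, adjusted p = 0.0102 with the block and 0.646 without it), with 0.60 under siRNA1 and 1.04 under siRNA2. Of these, the change under siRNA2 passed the test with the block (adjusted p = 0.0108 from limma) and that under siRNA1 had an adjusted p of 0.0617. Within the slide of replicates 1 and 2 it was 0.79, and on the slide of replicate 3 it was 0.89.

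*HHIP*, whose product binds hedgehog ligands at the cell surface and dampens their signaling, moved with it. Its values were 5.82, 6.70 and 5.80 with control siRNA, 6.34, 7.26 and 6.69 with siRNA1, and 6.72, 7.5 and 6.55 with siRNA2. Again 6 of 6 siRNA arrays were above their own control while the groups as a whole overlapped. The change of *HHIP* was 0.74 (SE 0.10, limma with the block, adjusted p = 0.0107, 0.646 without it), and it passed with the block under siRNA1 (0.66, adjusted p = 0.0386) and under siRNA2 (0.82, adjusted p = 0.0168). The difference between the 2 changes was 0.08. For this the exact permutation test (two-sided, 6 siRNA against 3 control arrays, without the pairing by number) gave p = 0.631. Their start sites lie in the shared promoter printed above.

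*PRR34-AS1*, named after a proline-rich protein gene that has no catalogue probe here, had values of 5.74, 6.06 and 5.62 with control siRNA, 6.17, 7.03 and 6.25 with siRNA1 and 6.50, 6.70 and 5.96 with siRNA2. The third array of siRNA2 was below the second control array, and all others were above the 3 control arrays. The change was 0.63 (SE 0.12, limma with the block, adjusted p = 0.0315). This call was lost when VSN was run on the processed signal and at the 75th percentile.

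*LEF1-AS1* rose while the probe of *LEF1* did not pass the test. *LEF1* encodes a transcription factor of the Wnt pathway that is needed in early T cell development. The antisense values were 8.95, 9.52 and 9.09 with control siRNA, 9.46, 9.77 and 9.86 with siRNA1 and 9.54, 9.78 and 9.66 with siRNA2, so that only the second control array reached the range of the siRNA arrays. This gave a change of 0.50 (SE 0.10, limma with the block, adjusted p = 0.0372), 0.52 under siRNA1 and 0.48 under siRNA2. This call too was lost under those 2 normalizations. *LEF1* itself had 15.55, 16.46 and 16.34 with control siRNA, 15.30, 16.69 and 16.09 with siRNA1 and 15.73, 16.35 and 16.23 with siRNA2. Its change was -0.05 (adjusted p = 0.855 with the block), with siRNA arrays on both sides of their own controls. The change of the antisense minus sense difference was 0.55, in the same direction within 6 of 6 arrays, and the exact permutation test gave p = 0.0595.

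The other 4 antisense probes that rose belong to *KLF3-AS1*, *ITPK1-AS1*, *CADM3-AS1* and *ZNF436-AS1*. *KLF3* encodes a Krüppel-like repressor of transcription and *ITPK1* a kinase of inositol phosphates. *KLF3-AS1* had 6.11, 5.78 and 5.12 with control siRNA, 6.38, 6.23 and 5.39 with siRNA1 and 6.96, 6.26 and 5.64 with siRNA2. The third number was the lowest in every group, by more than the mean change, so that the groups overlapped although each siRNA array was above its own control. Its change was 0.47 (adjusted p = 0.0448 with the block and 0.781 without it, limma), beside -0.06 for *KLF3*. The call of *KLF3-AS1* was lost under those 2 and with normexp. *ITPK1-AS1*, which was not well above background on the third control array, changed by 0.45 (adjusted p = 0.0476 with the block), beside -0.18 for *ITPK1*. This call was lost under each other normalization combined with the block, and with outlier spots kept.

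*CADM3* encodes a cell adhesion molecule of the nectin-like family, and its own probe was not well above background on any array. *CADM3-AS1* had 5.30, 5.19 and 4.81 with control siRNA, 5.51, 5.83 and 5.11 with siRNA1 and 5.78, 5.72 and 5.32 with siRNA2, a change of 0.45 (adjusted p = 0.0431 with the block). *ZNF436* encodes a zinc finger protein, and its antisense transcript had 2 probes. The dimmer one had 6.23, 6.58 and 6.18 with control siRNA, 6.72, 7.01 and 6.63 with siRNA1 and 6.48, 6.82 and 6.46 with siRNA2, and rose by 0.36 (adjusted p = 0.0451 with the block). The brighter probe had a change of 0.25 in the same direction with an adjusted p of 0.135, and *ZNF436* itself one of -0.11. Under the same 3 normalizations the calls of *CADM3-AS1* and *ZNF436-AS1* were lost. For both called probes the groups overlapped, with each siRNA array above its own control. The brighter probe of *ZNF436-AS1* was above its own control on 5 siRNA arrays and below it on 1.

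The antisense transcripts that fell were *ADARB2-AS1*, *UMODL1-AS1* and *ZNF205-AS1*. *ADARB2* encodes a member of the family of RNA-editing adenosine deaminases that lacks editing activity of its own, and *UMODL1* a uromodulin-like protein. *UMODL1-AS1* had 7.48, 7.22 and 7.18 with control siRNA, 7.06, 6.51 and 6.60 with siRNA1 and 7.09, 6.59 and 6.50 with siRNA2. All 6 siRNA arrays were below all 3 control arrays, and the change was -0.57 (SE 0.09, limma with the block, adjusted p = 0.0175, 0.644 without it). It was the single antisense probe that passed the test with the block under both siRNAs, at -0.57 each (adjusted p = 0.0394 for siRNA1 and 0.0347 for siRNA2).

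*ADARB2-AS1* had 6.60, 6.49 and 6.18 with control siRNA, 6.28, 5.66 and 5.81 with siRNA1 and 5.86, 5.69 and 5.61 with siRNA2. Only the first siRNA1 array reached above the lowest control array. Its change was -0.61 (SE 0.11, adjusted p = 0.0240 with the block), and it passed under siRNA2 alone at -0.70 (adjusted p = 0.0325, limma). Its call for both siRNAs was lost when VSN was run on the processed signal. *ZNF205-AS1*, named after another zinc finger gene, had 6.71, 5.98 and 5.75 with control siRNA, 6.26, 5.48 and 5.24 with siRNA1 and 6.27, 5.79 and 5.42 with siRNA2, a change of -0.40 (adjusted p = 0.0430 with the block and 0.784 without it). Here the numbers differed more from each other than the groups did. The call was lost when VSN was run on the processed signal, at the 75th percentile and with the deposited log2 values.

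**Figure D2:**
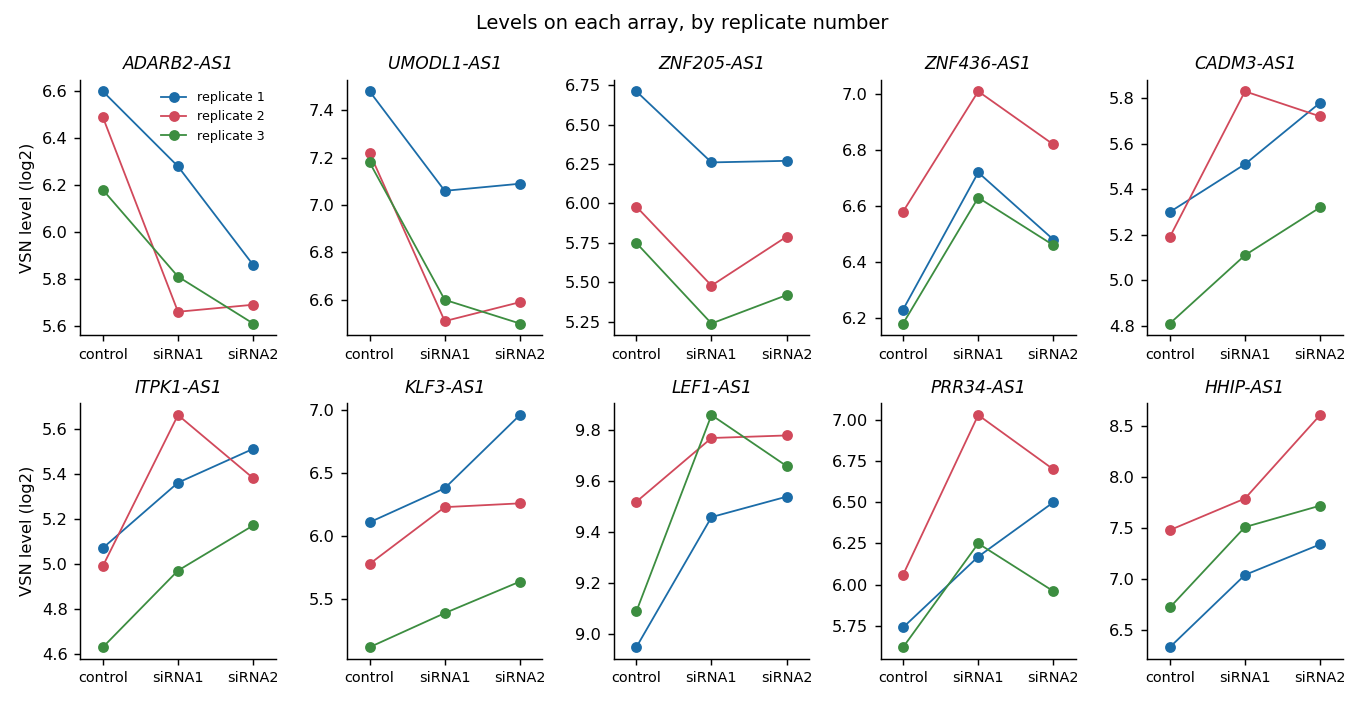
VSN level (log2 scale) of the 10 antisense probes with an adjusted p under 0.05 in the fit blocked on the replicate number, on each of 9 arrays, with a line joining the arrays of 1 replicate number and a separate vertical scale for each panel. Both siRNA arrays lie on the same side of the control array of their number in all 10 panels, while in most panels the numbers are spread as widely as the groups.

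With each siRNA taken alone, limma called 0 antisense probes without the block, where 0.00892% of all tested probes were called for siRNA1 and 0.0119% for siRNA2 (0.00297% higher). At an unadjusted p under 0.05 the counts were 14 for siRNA1 (background 5.93%) and 19 for siRNA2 (background 5.89%). With the block the count was 1 for siRNA1, *UMODL1-AS1*, beside a background of 0.94% (0.514% higher and 0.425% lower). It was 5 for siRNA2 beside a background of 1.64%, with *HHIP-AS1* and *KLF3-AS1* higher (background 1.06%) and *ADARB2-AS1*, *UMODL1-AS1* and *AGAP2-AS1* lower (background 0.58%). *AGAP2* encodes a GTPase-activating protein of the ARF family. *AGAP2-AS1* had 5.82, 5.97 and 5.94 with control siRNA, 5.48, 5.98 and 5.65 with siRNA1 and 5.07, 5.55 and 5.39 with siRNA2, and fell under siRNA2 by 0.57 (adjusted p = 0.0379 with the block). Every siRNA2 array was below every control array, whereas the second siRNA1 array was not. Both comparisons use the same 3 control arrays.

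The 2 siRNAs were also compared directly. The difference of siRNA2 minus siRNA1 ranged from -0.58 to 0.59 over the 185 probes, with a median of 0.009. Limma called 0 of them without the block, where 0.0% of all tested probes were called, and 0 with it, beside a background of 0.0387%. At an unadjusted p under 0.05 there were 7 (background 2.52%). Whether all arrays of one siRNA lay above and all of the other below their own controls was also counted, and this held for 2 probes, or 1.08%, beside 1.06% of all tested probes.

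Of the 185 probes, 8 had siRNA arrays that did not overlap the control arrays, 4.32% beside 3.92% of all tested probes. They were 3 higher (background 1.85%) and 5 lower (background 2.07%). Next to *UMODL1-AS1*, the lower ones were *FOXN3-AS1* (-0.34), *USP30-AS1* (-0.30), *ATP2B1-AS1* (-0.27) and *PRKCQ-AS1* (-0.26), with adjusted p from 0.0836 to 0.113 with the block. The higher ones were *ZFAT-AS1* (0.43), *PHACTR2-AS1* (0.35) and *INHBA-AS1* (0.31), with adjusted p from 0.0761 to 0.107. All of these except *UMODL1-AS1* and *ZFAT-AS1* were named after their values were seen. *PHACTR2-AS1* was well above background on only 4 arrays, and *INHBA-AS1* and *ATP2B1-AS1* on only 5 arrays each. The separation of the groups for these transcripts therefore lies close to background and may partly reflect detection. The others of the 8 were well above background on every array. Counted against its own control array, 28 probes were above it on 6 of 6 siRNA arrays (15.1%, background 10.7%) and 21 were below it (11.4%, background 10.8%).

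Other antisense transcripts with large differences did not pass the test in either fit. *GALNT9-AS1*, named after a transferase that starts O-linked glycans, had the lowest change, -0.71 (adjusted p = 0.0716 with the block). Its values were 12.44, 11.84 and 12.15 with control siRNA, 11.85, 11.15 and 11.56 with siRNA1 and 10.94, 11.58 and 11.49 with siRNA2, each siRNA array below its own control. *SMAD5-AS1*, named after a transducer of BMP signals, had -0.43 (adjusted p = 0.274), a value that rests largely on 1 control array at 6.56, the others of that group being at 5.37 and 5.45. For *VPS9D1-AS1*, singled out after its values were seen, a change of -0.61 came from a control array at 7.15 while the other 8 arrays lay between 4.54 and 5.19. On the higher side, *ZNF667-AS1* had 0.47 (adjusted p = 0.0579) and *MAPT-AS1*, named after the gene of the tau protein, had 0.46 (adjusted p = 0.0779), all from limma with the block.

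Several transcripts were read by more than 1 probe. This held for 19 symbols with 41 probes in all, and in 13 of them every probe lay on the same side of 0. The median spread between probes of 1 symbol was 0.17. *SNAI3-AS1* was among those that disagreed, with 0.15 for the brighter probe and -0.17 for the other.

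Next, each antisense transcript was set against the gene it is named after. A partner gene with a tested catalogue probe was found for 131 of the 163 symbols, 1 of them through an older symbol, and the brightest probe of each was used. For 32 symbols no partner probe passed the filter, and for 3 of these the array had no catalogue probe of the partner. In 76 of 131 pairs (58.0%) antisense transcript and partner had changes of the same sign. The share was 54.6% in 963 other pairs of measured genes that overlap on opposite strands. Pair by pair and array by array, both moved to the same side of their own controls on 6 of 6 siRNA arrays in 11 pairs and on none in 7.

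**Figure D3:**
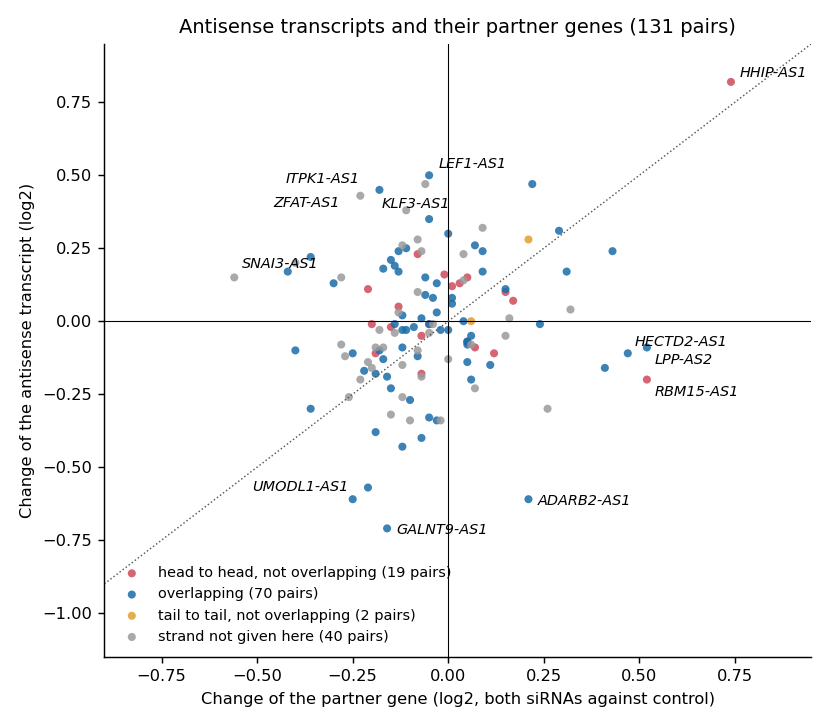
Change of the antisense transcript against change of its partner gene, both as log2 of both siRNAs against control siRNA, for 131 pairs, colored by the arrangement of the 2 genes, with equal changes on the dotted line. *HHIP-AS1* with *HHIP* stands at the upper right at 0.82 and 0.74, and most pairs lie within 0.25 of 0 on both axes.

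The same-sign share was also counted by arrangement, taken from the reference table (GRCh38.p14), which gave both strands for 91 pairs. It was 11 of 17 for head-to-head pairs that do not overlap and start within 1000 bases of each other, and 14 of 22 for overlapping pairs with starts within 1000 bases. It was 24 of 48 for overlapping pairs with starts farther apart and 25 of 40 for pairs whose strand was not given. In 19 pairs the promoter windows themselves share bases, between 50 and 295 with a median of 187, and 13 of these pairs moved the same way. *HHIP-AS1* and *HHIP* were the single pair of the 131 in which both members passed the test with the block.

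The partner genes as a group had a median change of -0.066, with 43 of 131 higher (32.8%, beside 49.9% of all tested probes) and 88 lower. Under the other normalizations their median was between -0.132 and -0.03. The -0.132 came from VSN on the processed signal, where all tested probes had -0.054. With normexp the partners had -0.03, and so did the antisense probes. The difference from their antisense transcripts was not tested. With the block limma called 3 partners (2.29%, background 2.72%). These were *HHIP*, *RBM15* and *PROSER2*, the last 2 named after their values were seen. *RBM15* encodes an RNA-binding protein needed for RNA methylation, and it starts head to head with *RBM15-AS1* in windows that share 295 bases. *RBM15* rose from 10.15, 10.62 and 10.09 with control siRNA to 10.84, 11.16 and 10.54 with siRNA1 and 10.95, 11.13 and 10.23 with siRNA2, a change of 0.52 (adjusted p = 0.0395 with the block). *RBM15-AS1*, above background on 7 arrays, had 4.84, 5.35 and 5.14 with control siRNA, 4.59, 5.24 and 4.75 with siRNA1 and 4.75, 5.23 and 4.92 with siRNA2. Its change was thus -0.20 (limma with the block, adjusted p = 0.217), below its own control on every siRNA array while *RBM15* was above. The exact permutation test of the difference gave p = 0.0238, unadjusted for the 131 pairs. This pair was picked by the change of *RBM15*, which is part of the difference, so the p-value is no independent test of it.

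The difference between antisense and sense values did not overlap between siRNA and control arrays in 2 of 131 pairs (1.53%). This held for 3.22% of the 963 other pairs, all of which overlap on opposite strands, whereas not all of the 131 do. The 2 were the pairs of *ZFAT-AS1* and *CCDC183-AS1*, the latter named after its values were seen. Under the other normalizations 4 to 7 pairs did not overlap. *ZFAT* encodes a zinc finger and AT-hook protein with a role in the survival of T cells. *ZFAT-AS1* had 5.27, 5.67 and 5.70 with control siRNA, 5.82, 6.17 and 5.85 with siRNA1 and 6.12, 6.0 and 5.90 with siRNA2, while *ZFAT* had 9.97, 10.18 and 10.10, then 9.76, 9.73 and 9.94, then 9.72, 9.98 and 10.03. Antisense was above and *ZFAT* below its own control on 6 of 6 arrays. The change of the difference was 0.66, with p = 0.0119 in the two-sided exact permutation test, the smallest that 84 splits can give and unadjusted for the 131 pairs. A pair without overlap is already the most extreme split on its side, so this p-value is no further support.

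Among pairs with both probes well above background on all 9 arrays, the widest positive change of a difference was that of *SNAI3-AS1*, 0.72 (exact permutation p = 0.0595). *SNAI3*, a repressor of the Snail family, had 7.0, 6.19 and 6.28 with control siRNA, 6.27, 5.44 and 5.81 with siRNA1 and 6.26, 6.12 and 5.67 with siRNA2, a change of -0.56 (adjusted p = 0.0563 with the block). The antisense probe had 8.56, 8.46 and 7.51, then 8.70, 8.51 and 7.79, then 8.68, 8.59 and 7.71, and so was above its own control throughout, but its change of 0.15 became -0.18 without control replicate 3. Its second probe, at -0.17, does not give the same direction for the antisense transcript.

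At the other end stood *ADARB2-AS1*, whose difference fell by 0.82 (exact permutation p = 0.0357), as *ADARB2* had a change of 0.21 (adjusted p = 0.393 with the block) with 1 siRNA array below its own control. *LPP-AS2*, with -0.61, is named after a LIM-domain protein of focal adhesions. Its own change was -0.09, and that of *LPP* was 0.52, from 8.02, 8.85 and 7.93 with control siRNA to 8.68, 9.17 and 8.34 with siRNA1 and 9.07, 9.1 and 8.37 with siRNA2 (adjusted p = 0.0552 with the block). In *HECTD2-AS1*, with -0.57, the antisense change was -0.11 and that of *HECTD2*, a ubiquitin ligase gene, was 0.47 (adjusted p = 0.0684). In the exact permutation test the last 2 differences had p of 0.0833 and 0.0595. *GALNT9-AS1*, with a difference of -0.56 (exact permutation p = 0.0952), was itself below its own control on 6 of 6 arrays, beside a change of -0.16 for *GALNT9*. These pairs and that of *SNAI3-AS1* were picked by the size of this difference. Their permutation p-values, unadjusted for the 131 pairs, are therefore not independent tests of it.

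**Figure D4:**
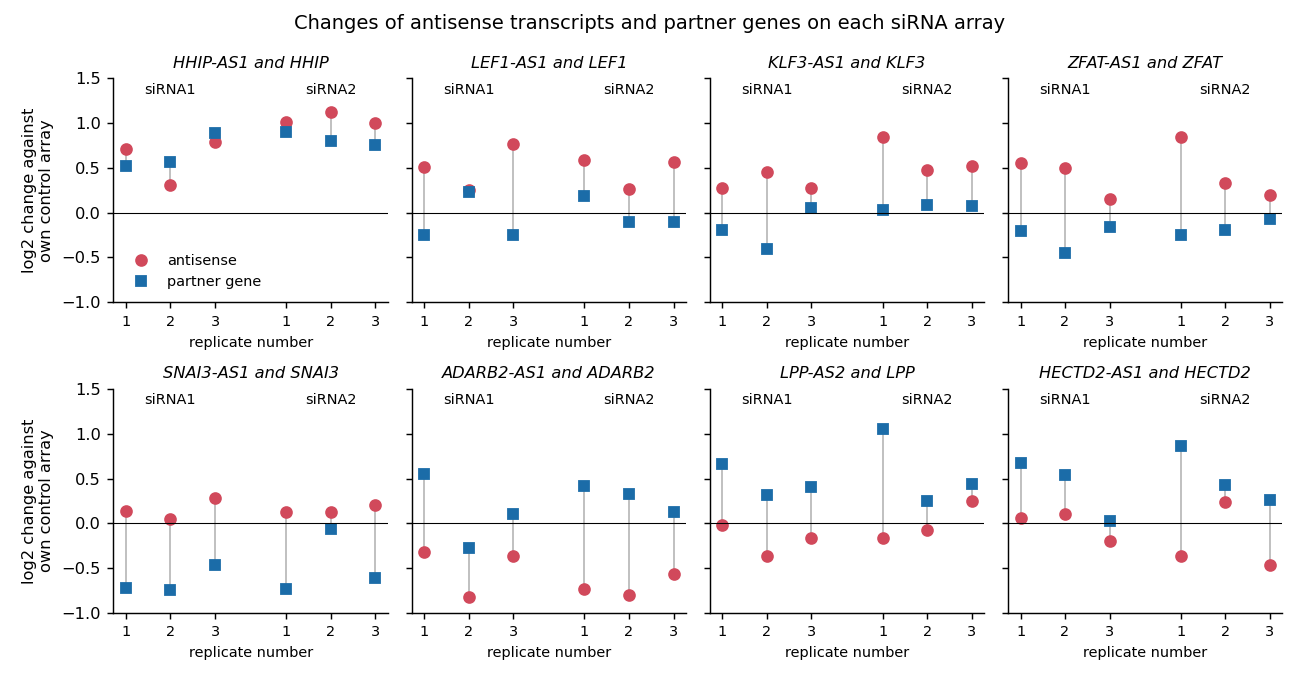
Log2 change of the antisense transcript (red circles) and of its partner gene (blue squares) on each of 6 siRNA arrays against the control array that shares its number, for 8 pairs, with a gray line joining the 2 values of 1 array. In *HHIP-AS1* and *HHIP* both symbols lie above 0 on 6 of 6 arrays, whereas in *ZFAT-AS1* and *ZFAT* and in *SNAI3-AS1* and *SNAI3* they lie on opposite sides of 0.

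Antisense transcripts of genes with roles in blood and T cell development were listed as a group. Besides *LEF1-AS1*, those of *CD27*, *ZEB1* and *TRAF3IP2* were measured on all 9 arrays, and none of these 3 passed the test. *CD27* encodes a costimulatory receptor, *ZEB1* a zinc finger repressor active in T cell precursors and *TRAF3IP2* an adaptor of interleukin-17 receptors. *TRAF3IP2-AS1* had 8.34, 8.68 and 8.33 with control siRNA, 8.59, 8.56 and 8.44 with siRNA1 and 8.62, 8.76 and 8.61 with siRNA2. It was above its own control on 5 of 6 arrays, with a change of 0.15 (adjusted p = 0.378 with the block), while *TRAF3IP2* had -0.28 (adjusted p = 0.1). The changes of *ZEB1-AS1* (0.03) and *CD27-AS1* (-0.02) were smaller than their standard errors. *GATA3-AS1*, *HOXA-AS3* and *HOXB-AS3* have catalogue probes that were not well above background on any array.

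Other named noncoding transcripts on catalogue probes were counted in the same way. With the block, limma called 1 of 41 probes of divergent transcripts (-DT, 2.44%) and 8 of 209 LINC probes (3.83%), beside 2.72% of all tested probes. It called 0 of 16 probes of host genes of small nucleolar RNAs (SNHG). Of 10 probes of intronic transcripts (-IT), all were higher and 6 were called, with a median change of 0.523. Their spread within groups was wide, a median SD of 0.413 beside 0.218 for all tested probes. The median change was 0.042 for -DT, 0.069 for LINC and 0.015 for SNHG probes. On the custom lncRNA probes of the array, 9210 of which were tested, it was 0.045, with 59.6% higher. The share higher was 48.1% for the antisense transcripts and 49.9% for all tested probes. The differences between these classes were not tested.

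Genes of the machinery that limits antisense RNA were examined from a list. The nuclear exosome with its adaptors, which degrades such RNAs, had 18 of 18 genes tested, 7 higher and 11 lower. Of these, 0 passed the test with the block (background 2.72%) or without it, and 4 had an unadjusted p under 0.05 (limma, background 7.43%). These 4 were *EXOSC6* (0.42) and *EXOSC2* (-0.32), *EXOSC5* (-0.33) and *MPHOSPH6* (-0.33), with adjusted p from 0.0685 to 0.0917 with the block. PHF6 is known to bind the PAF1 transcription elongation complex, whose 6 genes were all tested, 1 higher and 5 lower, and of which 0 passed (0 at an unadjusted p under 0.05). Of 14 Integrator genes, which cleave nascent RNA, 13 were tested, 4 higher and 9 lower, again with 0 that passed and 0 at an unadjusted p under 0.05.

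Last, the promoters of the measured antisense transcripts were described by sequence. The reference held a promoter for 122 of the 163 symbols. Their median GC content was 63.2%, with a median of 20 CpG a window and 60.7% of windows at an observed over expected CpG ratio of at least 0.6. All 27305 promoters had 58.3%, 14 and 49.0%, and 85 promoters of antisense symbols whose probes were not well above background had 58.0%, 13 and 44.7%. The genes after which the 163 symbols are named, measured or not, had 65.3%, 24 and 73.1% (134 promoters found). Searched on both strands, TATAAA was found in 3.28% of the 122 windows, beside 12.0% of all promoters. CCAAT was found in 35.2% (all promoters 35.7%), GGGCGG in 53.3% (44.6%) and CACGTG in 11.5% (7.43%), and no motif of the 4 contains another. In the 85 promoters of antisense symbols not well above background and the 134 of partner genes, TATAAA was found in 5.88% and 7.46%. In the same order, the shares were 35.3% and 38.1% for CCAAT, 35.3% and 60.4% for GGGCGG and 10.6% and 11.2% for CACGTG. Of the windows printed above, those of *HHIP-AS1*, *HHIP* and *LEF1-AS1* hold GGGCGG or its reverse complement and that of *PRR34-AS1* holds none of the 4.

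At the edge of the detection rule, 3 probes were well above background on exactly 3 arrays, with mean levels between 4.74 and 4.86 and changes between -0.05 and 0.14. Just outside it, 11 probes were above background on 2 arrays, with mean levels between 4.47 and 4.69 and differences between -0.25 and 0.27. Over all 185 probes the mean level ran from 4.70 to 15.92, with a median of 6.92.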

How the data were processed

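The authors read each one-color array with Agilent Feature Extraction (version 9.1 per the labels, 10.5.1.1 per the file headers) and deposited the intensity of every spot, unnormalized between arrays. Other deposited columns are flags of 0 or 1 for spots well above background, outlying or saturated. No spot was saturated. The authors also deposited a log2 table that they had normalized with VSN, used as an alternative. Here the VSN model was coded and fitted to median spot intensities without background subtraction (7 iterations, quantile 0.9), with outlier spots left out and repeated spots averaged. The scale is close to log2 for bright probes and compresses dim ones. Between 29690 and 33781 of 57176 probes were well above background on an array, and the number of arrays limits precision.

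Probes were named by matching their transcript identifiers to a RefSeq table (25724 of 34134 catalogue probes), and gene arrangement was read from the same table. Groups were compared with limma 3.58.1 in R 4.3.3 over all 33625 tested probes, with 3 groups sharing one spread and Benjamini-Hochberg adjustment. The study's methods name limma and no block. Replicate numbers come from the labels. Deviations from group means correlated at 0.311 to 0.745 in 9 pairs of arrays of the same number, so the number pairs the arrays, and blocked values are printed beside the others. In 18 pairs of different number and group the correlations were -0.569 to 0.134. Deviations cancel out within a group, which pushes these values negative, so they are no separate comparison. Replicate 3 was also on its own slide, so for it number and slide cannot be told apart. The p-values for single pairs are from exact permutation of 6 siRNA against 3 control arrays. This permutation does not use the pairing by number, and its p-values are unadjusted for the 131 pairs. The code was tested on simulated data.

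Named were all antisense transcripts called for both siRNAs or either one, with or without the block, the 6 highest and 6 lowest changes among probes above background on every array of their brighter group, the 4 highest and 4 lowest antisense minus sense differences among pairs with both probes above background on all 9 arrays, and those of a list of blood and T cell genes. The members and lists were chosen with earlier results of these data known. Alternatives were other intensities and normalizations, filters, blocks, prior variance, sense probes, the groups in the fit, and leaving out arrays. Combinations of the block with other normalizations were chosen after seeing the data.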

Additional observations from a re-analysis of the deposited data

Results flagged for a closer look

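For 2 of the 185 antisense probes (1.08%, beside 1.06% of all tested probes), all 3 arrays of one siRNA lay above and all 3 of the other below their own control arrays. The probe of *PSMA3-AS1*, named after a proteasome subunit gene, was below its own control by 0.02, 0.36 and 0.37 with siRNA1 and above it by 0.48, 0.09 and 0.28 with siRNA2. The difference of siRNA2 minus siRNA1 was 0.53 and had an adjusted p of 0.216 from limma with the replicate number as a block and of 1.0 without it. *TTC28-AS1* was read by 3 probes, and the one concerned, which is not its brightest, had -0.06, -0.51 and -0.09 with siRNA1 and 0.14, 0.05 and 0.06 with siRNA2, a difference of 0.3 (limma with the block, adjusted p = 0.469). The other 2 probes of *TTC28-AS1* did not show this, with differences of 0.01 for the brightest and 0.09.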

How the results depend on the processing

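With the replicate number as a block (replicate block), 10 antisense probes were called for both siRNAs, 1 for siRNA1 and 5 for siRNA2, where the fit without it called 0 of each. Combined with the block, VSN on the processed signal left 2, the 75th percentile 3, normexp with quantile 8, the deposited log2 values 8 and outlier spots kept 9 for both siRNAs. For siRNA2 these counts were 1, 1, 5, 4 and 5, and for siRNA1 normexp gave 3 and the deposited table and outlier spots kept gave 1 each. For both siRNAs together, *HHIP-AS1* and *UMODL1-AS1* were called under each of these normalizations. With the block, leaving out a replicate number gave 0 to 2 calls for both siRNAs and 0 to 2 for siRNA2. Of the other planned fits (slide as a block, intensity trend and robust prior variance, filters, groups compared only, single arrays left out), none called an antisense probe. The median change was -0.052 when VSN was run on the processed signal, blocked or not, where that of all tested probes was -0.054, and between -0.009 and 0.029 when a number was left out. It was 0.001 with the 75th percentile.

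Without a filter 150 of 276 pairs moved the same way. Pairs whose difference did not overlap numbered 5 without a filter, 1 with a filter on all 9 arrays, 7 when VSN was run on the processed signal, 7 at the 75th percentile, 5 with normexp and 4 with the deposited table. Without 1 array they numbered 2 to 16, the most without the second control array, and fewer arrays overlap less often by construction. The cause of the other shifts was not tested.

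*PHF6* had -1.837 when VSN was run on the processed signal, with an adjusted p of 0.0594. Signs turned for small values only. Those of *CD27-AS1* became 0.096 without control replicate 1, 0.013 without siRNA2 replicate 3 and 0.06 with the block and no replicate 1. *LPP-AS2* became 0.017 without control replicate 1, and *HECTD2-AS1* became 0.008 with the block and no replicate 3. Without control replicate 3, *SNAI3-AS1* became -0.18 and *ZEB1-AS1* -0.089. *ZEB1-AS1* was also -0.018 and -0.024 with the block and no replicate 1 or 3, and -0.038 when VSN was run on the processed signal, blocked or not. Over the single arrays left out, the values were -0.108 to 0.096 for *CD27-AS1*, -0.249 to 0.017 for *LPP-AS2*, -0.18 to 0.345 for *SNAI3-AS1* and -0.089 to 0.169 for *ZEB1-AS1*. These 5 transcripts were well above background on all 9 arrays. Of the 185 probes, 37 were not.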
